A study of Mus musculus with 19 samples.

Results

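Hox genes encode homeodomain transcription factors that assign positional identity along the head-to-tail axis. The 38 Hox genes described here were taken by symbol from the GRCm38 annotation, out of the 21887 protein-coding genes counted on the autosomes and sex chromosomes. They stand in 4 clusters, with 10 members in HoxA on chromosome 6, 10 in HoxB on chromosome 11, 9 in HoxC on chromosome 15 and 9 in HoxD on chromosome 2. A cluster span ran from the first to the last annotated base of its Hox genes and measured 106 kb for HoxA, 174 kb for HoxB, 116 kb for HoxC and 96.9 kb for HoxD. Each span was compared with 100 kb on both of its sides, called its flanks, which touch 7 other protein-coding genes.

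Open chromatin was read by bulk ATAC-seq, an assay that tags DNA wherever a transposase can reach it, in forebrain progenitors of mouse embryos at embryonic day 14 that had been enriched with magnetic beads for the surface protein Prom1. The 19 libraries form 4 groups. Mutants on the retinoic acid (RA) diet were Foxc1 hith/LacZ (n = 6), controls on the RA diet were Foxc1 WT (n = 5), mutants without the diet were Foxc1 hith/LacZ (n = 4) and controls without the diet were Foxc1 WT (n = 4). The hith allele is a hypomorphic allele of Foxc1, a transcription factor gene of the meninges, and LacZ denotes a reporter insertion allele. Mutant 1 is titled a Foxc1 mutant but carries a wild-type genotype label. Tests between groups on the 29112 best summits of each library were therefore also run without it. Those on all deposited summits were not. Nothing in the labels says that libraries of a group came from separate embryos, so each p-value covers the spread among these libraries alone, which may be technical.

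In the embryo, Hox genes are switched on in the order in which they lie in their cluster, low-numbered genes earlier and further forward, and the forebrain lies ahead of the foremost Hox domain. RA, bound by retinoic acid receptors at response elements near anterior Hox genes such as Hoxb1 and Hoxd4, activates those genes in the hindbrain and spinal cord. Where Hox genes are silent, Polycomb group proteins cover the clusters with a repressive histone mark, and Trithorax group proteins counteract it. Paralogs, Hox genes of the same number in different clusters, descend from 1 ancestral gene.

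The deposited data are lists of peak summits, single bases called per library with a -log10 q score, and hold no read counts, so the depth is unknown. The lists held 29112 to 122591 summits and averaged 63769 ± 23749 in mutants on the RA diet, 77804 ± 13693 in controls on the RA diet, 95379 ± 30545 in mutants and 98555 ± 22068 in controls (SD, n = 6, 5, 4 and 4). Each library was therefore also cut to its top 29112 summits by score, as many as the shortest list (mutant 4 on the RA diet) held, here called the matched set. In bulk libraries, accessibility in fewer cells and weaker accessibility in each cell cannot be told apart. Of 16 forebrain progenitor genes, 10 had a matched summit within 1 kb of an end in every library, among them Emx2, Sox2 and Hes5, and Prom1 had one in 13 of 19. The same count was 1 of 5 for endothelial genes (Kdr), 1 of 7 for mesenchyme and meninges (Tbx18) and 0 of 5 for blood, while Spi1 of the blood list and Col1a1 and Foxd1 of the mesenchyme list had a matched end summit in 18, 18 and 15 libraries. A list of 14 genes of the midbrain, hindbrain and spinal cord had 2 to 5 genes with a matched end summit per library in mutants on the RA diet, 1 to 3 in controls on the RA diet, 1 to 3 in mutants and 1 to 3 in controls, and its part in the Hox results was not tested.

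RefSeq windows of 300 bp, from 250 before to 50 after an annotated start in GRCm38.p6, were at hand for 22 of the 38 members (24 windows). No matched summit of any library fell in these 24 windows, while 45.7% of 21263 protein-coding windows held one in at least 1 library. Among windows with at least 20 CpG dinucleotides the count was 0 of 11 for Hox members and 79.4% of 7641 for all genes, a comparison within CpG-rich starts and without a test. Among all deposited summits, 9 of the 24 Hox windows (37.5%) and 54.2% of all windows held one in at least 1 library.

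Hoxd1 and Hoxd10 are printed because theirs were the Hox windows with deposited summits in the most libraries, 16 and 10 of 19, and the capitals run from the first to the last summit position seen in them. The Hoxd1 window lies at chr2:74762730-74763029 on the plus strand and holds 29 CpG, and the Hoxd10 window lies at chr2:74691641-74691940 on the plus strand and holds 22.
Hoxd1: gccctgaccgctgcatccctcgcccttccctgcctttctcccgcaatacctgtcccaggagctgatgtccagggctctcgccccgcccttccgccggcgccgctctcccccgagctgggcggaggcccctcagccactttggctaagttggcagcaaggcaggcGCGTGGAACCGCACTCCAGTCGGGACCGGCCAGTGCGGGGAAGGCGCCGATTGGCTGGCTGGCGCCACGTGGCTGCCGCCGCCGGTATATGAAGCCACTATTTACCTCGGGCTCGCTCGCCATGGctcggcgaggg
Hoxd10: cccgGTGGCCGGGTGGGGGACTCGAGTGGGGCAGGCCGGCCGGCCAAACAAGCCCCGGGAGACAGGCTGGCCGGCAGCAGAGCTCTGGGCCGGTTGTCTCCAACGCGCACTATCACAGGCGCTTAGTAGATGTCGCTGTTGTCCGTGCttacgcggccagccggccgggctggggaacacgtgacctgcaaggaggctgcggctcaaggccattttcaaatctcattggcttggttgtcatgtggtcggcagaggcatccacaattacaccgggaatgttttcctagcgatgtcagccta
Hoxa5 and Hoxd4 are printed as windows without a deposited summit in any of the 19 libraries, and their capitals mark the letters AGGTCA, the core hexamer bound by retinoic acid receptors, or its reverse complement TGACCT. Hoxa5 lies at chr6:52204538-52204837 on the minus strand with 29 CpG, and Hoxd4 at chr2:74721728-74722027 on the plus strand with 4.
Hoxa5: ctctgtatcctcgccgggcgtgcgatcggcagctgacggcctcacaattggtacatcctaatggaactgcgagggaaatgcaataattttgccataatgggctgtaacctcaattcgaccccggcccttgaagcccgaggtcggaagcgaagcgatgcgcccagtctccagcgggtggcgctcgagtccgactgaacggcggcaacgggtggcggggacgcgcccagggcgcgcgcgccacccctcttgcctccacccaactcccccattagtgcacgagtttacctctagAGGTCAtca
Hoxd4: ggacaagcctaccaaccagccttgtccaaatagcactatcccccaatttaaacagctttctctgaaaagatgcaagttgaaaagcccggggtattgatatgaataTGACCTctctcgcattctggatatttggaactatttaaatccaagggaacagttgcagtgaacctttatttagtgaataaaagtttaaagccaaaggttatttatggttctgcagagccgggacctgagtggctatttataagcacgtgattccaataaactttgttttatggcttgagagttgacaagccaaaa
Lnpk, an endoplasmic reticulum gene in the flank of HoxD, is printed for comparison because its window at chr2:74578899-74579198 on the minus strand, with 25 CpG, held a matched summit in all 19 libraries. Of the other flank windows, that of Mtx2 held one in 13 libraries, and those of Evx1, Evx2 and Ttll6 in 0, as in the Hox windows.
Lnpk: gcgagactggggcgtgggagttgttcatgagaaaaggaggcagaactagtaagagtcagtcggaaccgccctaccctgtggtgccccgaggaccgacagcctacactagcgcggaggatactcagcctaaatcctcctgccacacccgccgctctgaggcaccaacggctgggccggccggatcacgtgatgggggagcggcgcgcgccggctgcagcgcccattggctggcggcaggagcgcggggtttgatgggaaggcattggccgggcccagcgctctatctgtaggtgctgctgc

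The hexamer AGGTCA, searched on both strands, occurred in 7 of the 24 Hox windows (29.2%), those of Hoxa5, Hoxb4, Hoxc4, Hoxd3, Hoxd4, Hoxd8 and Hoxd10, and in 14.7% of all windows. The variant AGTTCA, which shares no match with AGGTCA, occurred in 2 Hox windows (8.33%) and 12.5% of all windows. The direct repeats AGGTCANNAGGTCA, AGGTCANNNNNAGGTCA and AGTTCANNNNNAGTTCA occurred in 0 of the 24 Hox windows and in 0, 1 and 4 of the 21263 windows. Of the 7 Hox windows with AGGTCA, that of Hoxd10 held deposited summits in 10 libraries and that of Hoxb4 in 1. The other 5 held none.

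Across whole clusters, the 4 Hox spans and their flanks held many summits of low score and few of high score. With all deposited summits the 19 libraries placed 808 summits in the spans and 751 in the flanks, and with the matched set 72 and 106. Only 8.91% of the span summits and 14.1% of the flank summits were thus among the best 29112 of their library, against 35.8% over all windows of the genome. The span share was below the share of the whole list in 18 of the 18 libraries whose list was longer than the matched set. The flank share was below it in 18 of 18 too, and the span share was below the flank share in 15 of 18. HoxD showed the widest gap, with 8.67% of span summits and 29.9% of flank summits in the matched set. In HoxA the shares were 7.88% and 14.8%, in HoxB 13.6% and 12.8%, and in HoxC 4.46% and 1.20%, so the order of span and flank was not the same in every cluster.

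**Figure D1:**
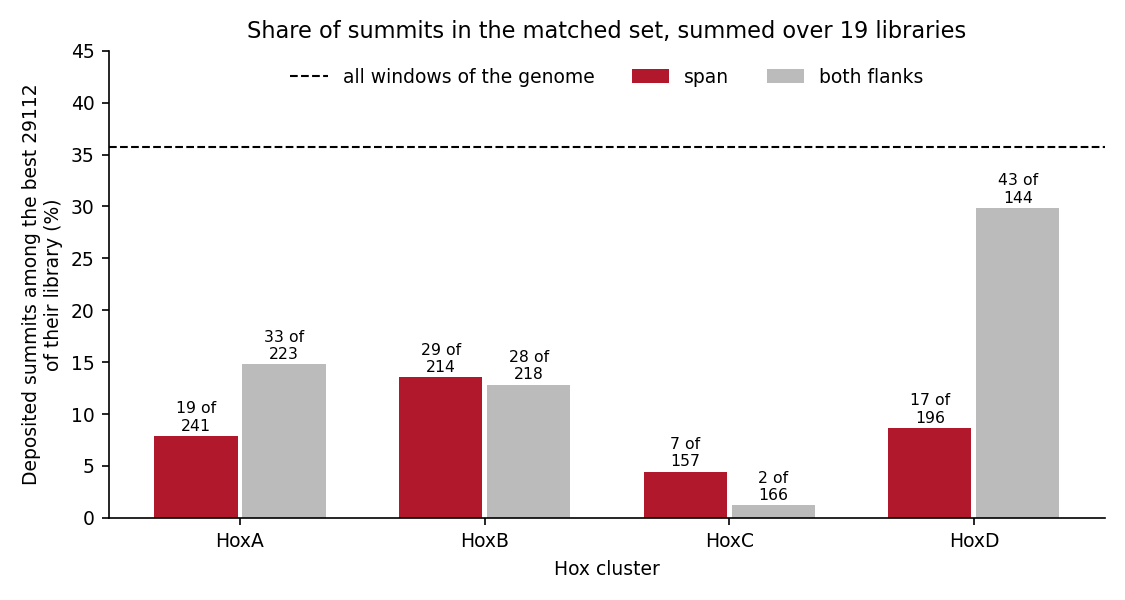
Percentage of deposited summits that were among the best 29112 of their library, summed over 19 libraries, for each cluster span (red) and both of its flanks (grey), with the summit numbers above the bars. All 8 bars lie below the dashed line, the 35.8% of all genome windows, and the HoxD flanks come nearest to it with 29.9%.

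Density was read against the mean of 27208 genome windows of 100 kb in the same library. With all deposited summits, the spans had 2.09, 2.32, 1.91, 0.570, 2.09 and 3.78 times the genome density in mutants on the RA diet 1 to 6. The ratio was 2.47, 3.00, 2.89, 2.86 and 2.25 in controls on the RA diet 1 to 5, 4.30, 3.71, 2.35 and 0.778 in mutants 1 to 4, and 3.17, 4.42, 3.27 and 3.39 in controls 1 to 4. It was above 1 in 17 of 19 libraries, all except mutant 4 on either diet. The 5 controls on the RA diet lay below all 4 controls, while both mutant groups overlapped with the controls. In the matched set the ratio was below 1 in 15 of 19 libraries, and mutant 1 on the RA diet had 0 matched summits in the spans. There controls on the RA diet, at 0.570 to 1.14, overlapped with controls, at 0.570 to 1.33. The pattern was not particular to the spans. The flanks had a median ratio of 1.62 (0.818 to 2.04) with all deposited summits, and at most 0.818 in the matched set. Averaged over libraries, the HoxA span held 12.0 deposited summits per 100 kb, more than 99.5% of genome windows, and the HoxD span held 10.6, more than 98.7%. The HoxC span held 7.14 and the HoxB span 6.48, more than 90.5% and 87.5% of windows. In the matched set the spans held 0.948 (HoxA), 0.878 (HoxB), 0.318 (HoxC) and 0.923 (HoxD) summits per 100 kb, near the middle of the genome, more than 56.7%, 54.2%, 45.3% and 55.3% of windows.

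**Figure D2:**
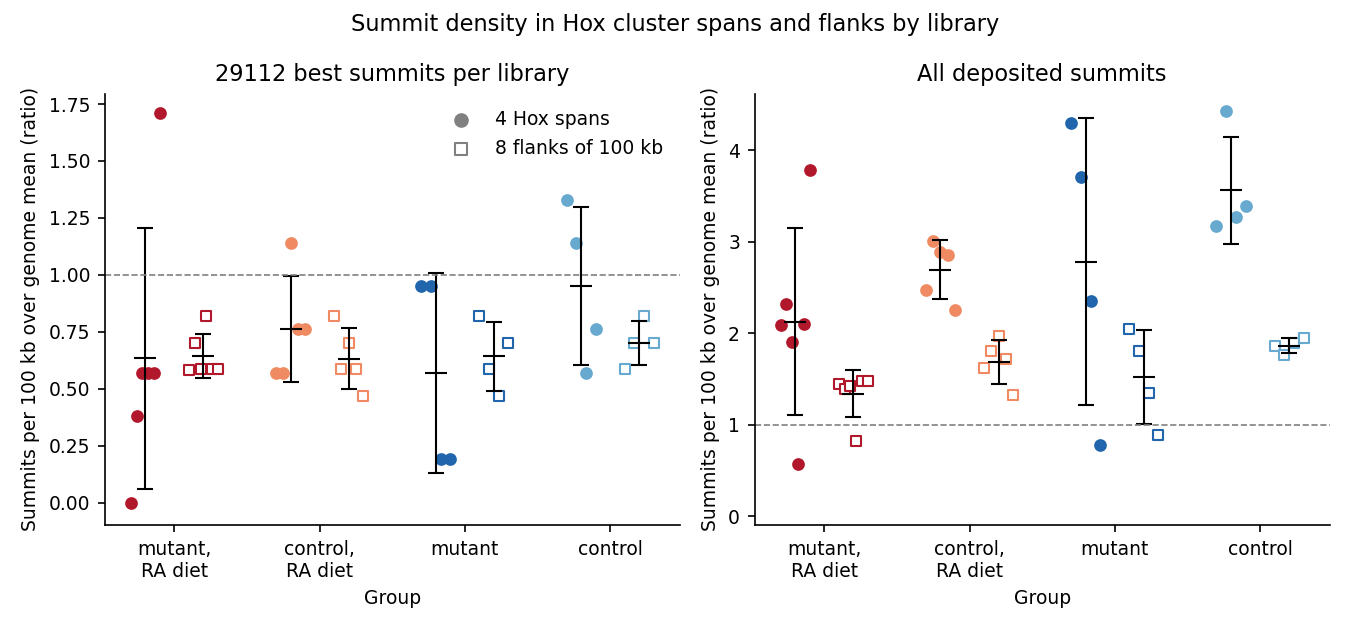
Summits per 100 kb in the 4 Hox spans together (filled circles) and in the 8 flanks together (open squares), each divided by the mean of the genome windows of the same library, for the 29112 best summits (left) and for all deposited summits (right). Each symbol is 1 library, bars give the group mean and SD, and the dashed line is the genome mean: 17 of 19 span values lie above it on the right and 15 lie below it on the left.

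The difference between span and flank density depended on how many summits were used. With all deposited summits it was positive in every cluster, at 6.15 ± 5.56 summits per 100 kb in HoxA (SD over 19 libraries, higher within the span in 18), 0.739 ± 1.37 in HoxB (15 of 19), 2.77 ± 2.51 in HoxC (16 of 19) and 6.85 ± 4.53 in HoxD (19 of 19). A two-sided sign-flip permutation test over libraries gave adjusted p = 4.0e-05, 0.0324, 1.7e-04 and 8.0e-05 over the 4 clusters. With the matched set the differences were 0.0793 in HoxA, 0.141 in HoxB, 0.266 in HoxC and -0.208 in HoxD, and none passed the same permutation test (adjusted p = 0.733, 0.424, 0.0897 and 0.371). In HoxD 13 of 19 libraries held 1 span summit and 2 flank summits, a difference of 0.0318 per 100 kb that comes from the span length alone, and 1 other library, mutant 6 on the RA diet, was higher within the span. None passed with any single library left out, and HoxA turned to -0.0465 without control 1 or without mutant 6 on the RA diet. Flanks of 50 kb turned the sign in HoxA (-0.579), HoxB (-0.280) and HoxD (0.660), and HoxA, HoxC and HoxD then passed the permutation test (adjusted p = 0.0456, 0.0456 and 0.0135). Flanks of 200 kb turned it in all 4 clusters, and HoxC then passed at -1.52 (adjusted p = 8.0e-05).

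At the ends of the Hox genes, within 1 kb of either annotated end, 34 of 38 members had a matched summit in no library and 0 had one in all 19. Over all protein-coding genes 36.6% had one in all 19 libraries and 56.3% in at least 1. The 4 members with a matched end summit were Hoxb8 (11 libraries), Hoxa10 (3), Hoxb2 (1) and Hoxd9 (1). Taking every deposited summit, 32 of 38 members (84.2%) had an end summit in at least 1 library, against 68.0% of all genes. Only 13 (34.2%) had it in at least 10 libraries, against 59.4%, and 0 in all 19, against 43.1%. Hox ends were thus reached in a larger share of genes but in fewer libraries per gene than gene ends at large. The median was 8 libraries for the members and 17 for all genes. Neighbouring members can share a summit, since ends of Hoxa5 and Hoxa6 lie at chr6:52204587 and chr6:52204858. The part of shared summits and of the higher summit density in the spans was not tested.

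**Figure D3:**
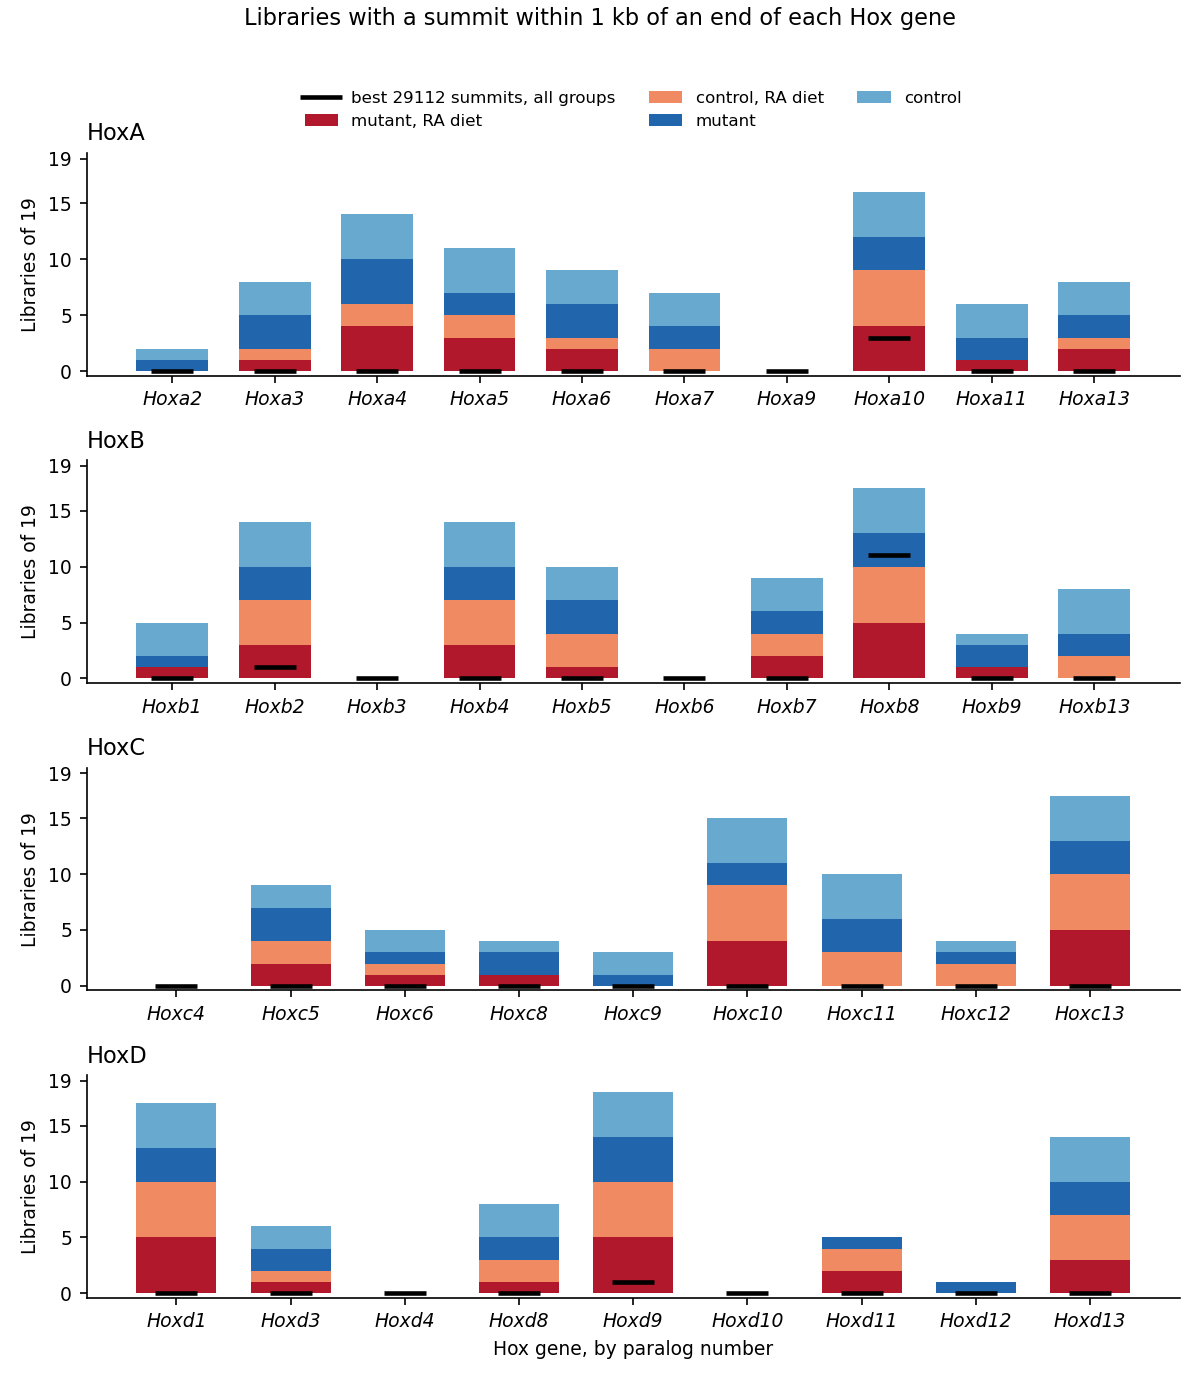
Number of libraries, of 19, with a deposited summit within 1 kb of an end of each Hox gene, stacked by group (mutants on the RA diet at the bottom, controls on top), by cluster and paralog number. Black ticks give the number with a matched summit, which is above 0 for Hoxb8 (11), Hoxa10 (3), Hoxb2 (1) and Hoxd9 (1).

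Anterior members, of paralog groups 1 to 4, pattern the hindbrain and include the classic RA target genes. Of these 11 members, 8 had a deposited end summit in at least 1 library, and Hoxb2, a regulator of rhombomere and facial nerve identity, was the only one with a matched end summit, in mutant 6 on the RA diet. Hoxd1 had deposited end summits in 17 libraries, Hoxa4, Hoxb2 and Hoxb4 in 14, Hoxa3 in 8, Hoxd3 in 6, Hoxb1 in 5 and Hoxa2 in 2. For Hoxb1, which RA activates in the early hindbrain, the libraries were 1 of 6 mutants and 0 of 5 controls on the RA diet, 1 of 4 mutants and 3 of 4 controls without it. Hoxb3, Hoxc4 and Hoxd4 had none in any library.

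Middle members, of paralog groups 5 to 8, act in the cervical and thoracic cord and axial skeleton. Of 11 members 10 had a deposited end summit in at least 1 library, and only Hoxb6 had none. Hoxb8, which acts in spinal cord and in a myeloid lineage of microglia in mouse, stood out from the other members. Its matched end summits came from 2 of 6 mutants on the RA diet, 5 of 5 controls on the RA diet, 1 of 4 mutants and 3 of 4 controls. Hoxa5 had deposited end summits in 11 libraries, Hoxb5 in 10, Hoxa6, Hoxb7 and Hoxc5 in 9, Hoxd8 in 8, Hoxa7 in 7, Hoxc6 in 5 and Hoxc8 in 4.

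Posterior members, of paralog groups 9 to 13, pattern the lumbosacral axis, the limbs and the urogenital tract. Of 16 members 14 had a deposited end summit in at least 1 library and 6 in at least 10. Hoxd9 had deposited end summits in 18 libraries, the most of any member, with a matched one in mutant 6 on the RA diet. Hoxa10, which acts in the uterus and hindlimb, had them in 16, with matched ones in control 3 on the RA diet and in controls 1 and 2. Hoxc13, a hair follicle regulator, followed with 17 libraries, Hoxc10 with 15, Hoxd13 with 14 and Hoxc11 with 10, none of them matched. Hoxa9 and Hoxd10 had no end summit in any library, although the RefSeq start window of Hoxd10, which lies inside the annotated gene at more than 1 kb from both ends, held deposited summits in 10. The share of members with an end summit was therefore similar among anterior, middle and posterior groups (8 of 11, 10 of 11 and 14 of 16), a description without a test.

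Summits at most 200 bp apart and from at least 2 libraries were joined into regions. The spans held 94 regions, the flanks 76 and the genome 150489. Just 1 span region (1.06%) and 3 flank regions (3.95%) had a summit in all 19 libraries, against 12.4% of all regions. Of the span regions 59 lay inside a member, 17 inside other annotated genes only and 18 inside none, and 42 lay within 1 kb of a member's end. No span region had a matched summit in all 19 libraries, whereas 2 flank regions did.

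**Figure D4:**
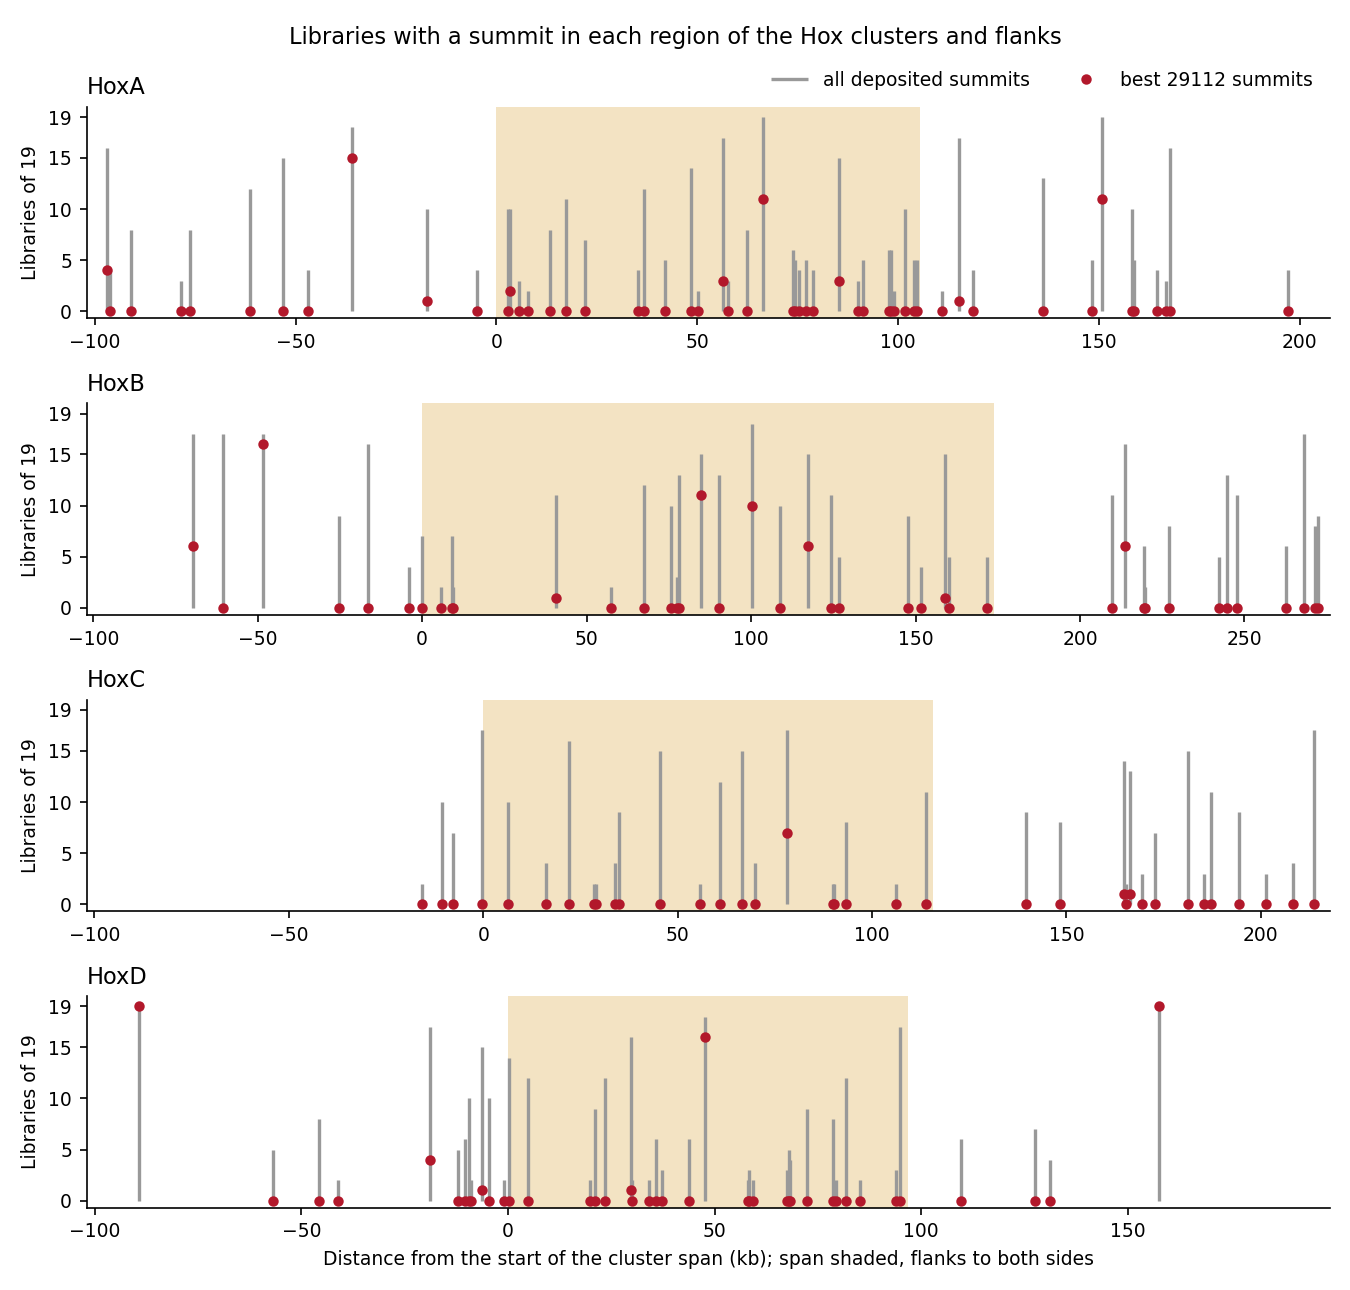
Number of libraries, of 19, with a summit in each region of the 4 clusters and their flanks, by distance from the start of the span in kb, for all deposited summits (grey lines) and the best 29112 (red points). The span is shaded. In the spans 1 grey line reaches 19 and no red point does, while both do in the HoxD flanks, at Lnpk and Mtx2.

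The best-ranked span summit of a library fell in 1 of 5 regions, singled out here after their values were seen. The most frequent, the best in 11 of 19 libraries, was chr2:74715957-74716085 inside Hoxd3 and the antisense transcript Hoxd3os1, 4028 bp from the nearest end of Hoxd3, a gene of the upper cervical axis. Counting rank 1 as the best score of a library, its summit ranked 35270, 24983, 18599, 20649, 18130 and 19594 in mutants on the RA diet 1 to 6, and 18613, 22496, 21078, 18686 and 18962 in controls on the RA diet 1 to 5. It ranked 23783, 22683 and 20087 in mutants 1 to 3, was missing in mutant 4, and ranked 15740, 17809, 32171 and 25190 in controls 1 to 4. It was in the matched set of 16 libraries, and no group stood outside the range of the others.

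The only span region present in all 19 libraries was chr6:52221753-52221855, in no gene and 1293 bp from Hoxa9, a posterior gene also active in blood stem cells. Its ranks were 40713, 45023, 47740, 16408, 25911 and 20930 in mutants on the RA diet 1 to 6, 24334, 35820, 37081, 25364 and 19289 in controls on the RA diet, 19595, 33707, 31638 and 25065 in mutants, and 25060, 31357, 26919 and 27734 in controls. The groups overlapped, with the widest range in mutants on the RA diet, and 11 libraries held it in the matched set.

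The matched end summits of Hoxb8 came from chr11:96278923-96279016, just outside the gene and 432 bp from its nearest end. The region had a deposited summit in 4 of 6 mutants on the RA diet (ranks 36686, 24921, 25243 and 31820 in libraries 1, 2, 3 and 5) and in 5 of 5 controls on the RA diet (26535, 26784, 22660, 24343 and 23435). It had one in 2 of 4 mutants (28796 and 43704 in libraries 2 and 3) and in 4 of 4 controls (23724, 21170, 31236 and 24290). It was thus present in 9 of 9 control libraries and in 6 of 10 mutant libraries over both diets, a count noticed afterwards and not tested. Of the 4 libraries without it, 3 had the shortest lists of all, at 29112, 48323 and 49804 summits, and the other was mutant 1, whose genotype label is wild type. For matched summits, the difference of 2 of 6 mutants on the RA diet against 5 of 5 controls on the RA diet gave the smallest p of any Hox region or gene end in that comparison (two-sided Fisher's exact test, p = 0.0606, adjusted p = 1 over 44878 regions).

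Among the remaining leading regions were chr11:96294661-96294760 inside Hoxb6 and Hoxb5os, present in 18 libraries and matched in 10, and chr15:102999306-102999419 inside Hoxc6, present in 17 and matched in 7. In the Hoxc6 region a matched summit was seen in 1 of 6 mutants on the RA diet, 1 of 5 controls on the RA diet, 2 of 4 mutants and 3 of 4 controls. At the Hoxd1 start, region chr2:74762894-74763202 was present in 17 libraries but ranked between 32410 and 72090, and was in no matched set.

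In the flanks, Lnpk and Mtx2 were the protein-coding genes with a matched end summit in all 19 libraries. At Lnpk, which lies near known digit enhancers of HoxD, region chr2:74578912-74578960 ranked 1829 to 7273 in mutants on the RA diet (median 3205), 1992 to 3535 in controls on the RA diet (3007), 2358 to 3120 in mutants (2858) and 1685 to 4572 in controls (3008). At Mtx2, a mitochondrial import gene, region chr2:74825765-74825895 ranked 9437 to 18652 in mutants on the RA diet, 13662 to 19393 in controls on the RA diet, 11962 to 24494 in mutants and 11935 to 18167 in controls. All 19 ranks at Lnpk were better than 14477, the best rank of any span summit, while the ranks at Mtx2 ran across it. Calcoco2, an autophagy receptor gene, and Ttll6, a tubulin glutamylase gene, had matched end summits in 6 libraries. The homeobox genes Evx2 and Evx1, which adjoin HoxD and HoxA, had them in 1 and 0 libraries, and Skap1, a T cell adaptor gene, in 0.

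Between groups, no Hox span, flank, member or region passed an adjusted p of 0.05 in any comparison. Over 100 kb windows, limma on log2(summits + 0.5) of the matched set tested 11779 features, of which 6 were Hox spans or flanks, namely the HoxA and HoxB spans, their left flanks and both HoxD flanks. It called 0 of these 6, with 0 at an unadjusted p under 0.05, in each of the comparisons. The share of all features called was 0.00849% for mutants against controls, 0.0255% for controls on the RA diet against controls, 0.017% for mutants on the RA diet against mutants, 0.017% for mutants on the RA diet against controls on the RA diet, 0.0255% for mutants on the RA diet against controls and 0.017% for the interaction of genotype and diet. The lowest unadjusted p was that of the HoxA span in mutants against controls. Its matched summits numbered 1, 0, 0 and 1 in mutants 1 to 4 and 3, 2, 1 and 1 in controls 1 to 4, so the groups overlapped at 1 (log2 difference -1.28, SE 0.67, adjusted p = 0.679 by limma). With all deposited summits limma tested 18682 features, 12 of them Hox spans or flanks, and called 0%. Of these 12, 9 had an unadjusted p under 0.05 in mutants on the RA diet against controls (29.6% of all features), and 3 did after scaling by list length (13.5%). In mutants against controls 0 did (0.514%), and 4 did after scaling (2.9%).

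The matched summits in all 4 spans numbered 0, 2, 3, 3, 3 and 9 in mutants on the RA diet 1 to 6, 3, 3, 6, 4 and 4 in controls on the RA diet, 5, 5, 1 and 1 in mutants, and 7, 6, 3 and 4 in controls. In the flanks they numbered 5, 6, 5, 7, 5 and 5 in mutants on the RA diet, 7, 5, 6, 5 and 4 in controls on the RA diet, 7, 5, 4 and 6 in mutants, and 5, 6, 7 and 6 in controls. Span counts therefore spread more between libraries of a group than flank counts did, with means of 3.33 ± 3.01 in mutants on the RA diet, 4.00 ± 1.22 in controls on the RA diet, 3.00 ± 2.31 in mutants and 5.00 ± 1.83 in controls (SD, n = 6, 5, 4 and 4). Without mutant 1 the mutants averaged 2.33 ± 2.31 (n = 3).

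The density difference between span and flanks, set against itself between groups in 20 exact permutation tests (5 comparisons in 4 clusters), was called in 0, with 1 at an unadjusted p under 0.05. That was HoxC, at 0.0607 ± 0.149 summits per 100 kb in mutants on the RA diet and 0.648 ± 0.432 in controls (SD, n = 6 and 4, exact permutation p = 0.0333, adjusted p = 0.667). These 2 values rest on 1 and 3 libraries with a matched summit in the HoxC span. Over all deposited summits the lowest p was that of HoxD in the same comparison, 3.78 ± 3.01 in mutants on the RA diet and 10.9 ± 2.21 in controls (exact permutation p = 0.00952, adjusted p = 0.190). Of the 20 tests 3 had an unadjusted p under 0.05 there, and 0 did per 10000 summits of the library (smallest adjusted p = 0.600, exact permutation). The smallest p these tests allow is 0.0286 for mutants against controls and 0.00476 for mutants on the RA diet against mutants or controls.

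Members could not be tested for matched summits per gene, since 0 of 38 reached the mean of 1 summit that 10828 genes passed, of which limma called 0%, 0%, 0.0185%, 0.0277% and 0.0277% in the 5 comparisons in the order above and 0.00924% for the interaction. By Fisher's exact test on end summits, 0 of 38 members and 0% of 21887 genes were called in each of the 5 comparisons for the matched set, with 0 members at an unadjusted p under 0.05. The same test over 44878 matched regions called 0%, with 0 of the 18 in Hox spans and flanks at an unadjusted p under 0.05. Presence in 4 to 6 libraries a group limits what this test can call. With 6 against 4 libraries its smallest p is 0.00476, and 2085 genes would have to reach it together before any passed the adjustment. In the limma fit on the rank of 13035 regions matched in every library, which called 0% in all comparisons, the 2 Hox flank regions at Lnpk and Mtx2 had 0 calls and 0 unadjusted p under 0.05.

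Counts of deposited summits differed widely between libraries. The 4 spans held 33, 35, 28, 3, 20 and 33 summits in mutants on the RA diet 1 to 6, 31, 43, 47, 47 and 24 in controls on the RA diet, 84, 77, 46 and 7 in mutants, and 47, 62, 66 and 75 in controls. All 6 mutants on the RA diet lay below all 4 controls, and mutant 4 without the diet lay below every other library except mutant 4 on the diet. The flanks held 37, 34, 34, 7, 23 and 21 in mutants on the RA diet, 33, 42, 52, 46 and 23 in controls on the RA diet, 65, 61, 43 and 13 in mutants, and 45, 40, 62 and 70 in controls. In the flanks too, all 6 mutants on the RA diet lay below all 4 controls, so this order was not particular to the spans. Per 10000 summits of a library, the spans held 3.84 ± 1.85 in mutants on the RA diet, 4.86 ± 0.576 in controls on the RA diet, 5.03 ± 2.83 in mutants and 6.43 ± 1.05 in controls (SD, n = 6, 5, 4 and 4), with 4.11 ± 2.65 in the mutants without mutant 1. The values per 10000 summits of mutants on the RA diet reached 6.83 and those of controls began at 5.72, an overlap that rests on mutant 6 on the RA diet, since the other 5 reached at most 4.18. Controls on the RA diet, at 4.06 to 5.42, lay below all 4 controls, at 5.72 to 7.99, and these sums were not tested.

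List length moved with these counts. Over the 19 libraries, it correlated with the span count at Pearson's r = 0.871 and Spearman's rho = 0.826, and with the flank count at r = 0.949 and rho = 0.924. These are 2 relations, with permutation p of 1.0e-05 and 3.0e-05 for the spans and 1.0e-05 for both measures in the flanks, where 1.0e-05 is the smallest that 100000 resamples can give. The adjusted values are 1.0e-05 for r in both and 3.0e-05 and 2.0e-05 for rho. Without the 2 libraries farthest from the median length r was 0.815 and 0.922, and between deviations from the group means it was 0.805 and 0.938. Libraries with nearly equal lists could still differ in the spans, since mutant 3, with 108407 summits, held 46 in the spans and mutant 1, with 108298, held 84. These 2 libraries also differed in median score, at 8.19 in mutant 3 and 15.5 in mutant 1, and mutant 1 carries a wild-type genotype label.

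**Figure D5:**
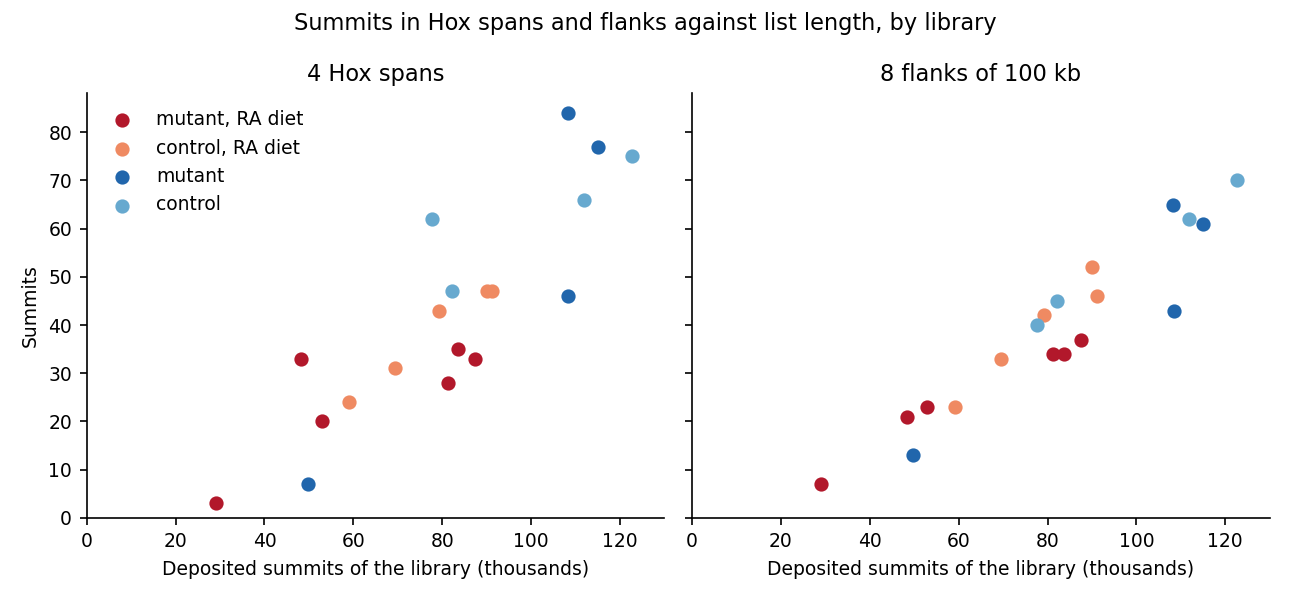
Deposited summits in the 4 Hox spans (left) and in the 8 flanks (right) against the number of summits in the library's whole list, 1 point per library, coloured by group. Counts are higher in longer lists, with r = 0.871 for spans and 0.949 for flanks. All 6 mutants on the RA diet lie below all 4 controls in both panels.

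In limma on all deposited summits per gene, 24 of 38 members passed the mean of 1 summit over the 19 libraries. A member could pass through the groups where it was high. Hoxc11 passed with a mean of 1.05, at 0 in mutants on the RA diet and 1.75 in controls. The signs and leading members given here are therefore not independent of this filter, and list length bears on them too. For mutants on the RA diet against controls all 24 had a negative log2 difference, with a median of -1.08 against -0.50 over 14784 genes, and 9 had an unadjusted p under 0.05, against 24.4% of all genes. After scaling by list length the medians were -0.38 for these members and 0.21 for all genes, 20 were negative, and 5 had an unadjusted p under 0.05, against 22.9% of all genes. None was called in either fit, against 0.0541% of all genes unscaled and 0% scaled, and the smallest adjusted p was 0.202 in both by limma. In the scaled fit the lowest unadjusted p were those of Hoxb13, a posterior gene of the prostate and tail, at -1.65 (SE 0.47), and of Hoxc11, a limb and kidney gene, at -1.44 (SE 0.47), with adjusted p = 0.202 for both by limma.

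Those 2 genes also had the lowest p among members for end summits, which are drawn from the same deposited summits and are not separate evidence. With all deposited summits, Hoxb13 had an end summit in 0 of 6 mutants on the RA diet, 2 of 5 controls on the RA diet, 2 of 4 mutants and 4 of 4 controls, and Hoxc11 in 0 of 6, 3 of 5, 3 of 4 and 4 of 4. For both, mutants on the RA diet against controls gave Fisher's exact p = 0.00476 and adjusted p = 1. In that comparison 3 of 38 members (the other being Hoxa7, 0 of 6 against 3 of 4) had an unadjusted p under 0.05, and 0.927% of all genes did. The counts were 2 members (Hoxa11 and Hoxb1, each 0 of 5 against 3 of 4) and 0.416% for controls on the RA diet against controls, and 1 member (Hoxc11) and 0.352% for mutants on the RA diet against mutants. They were 0 members for mutants against controls (0.0137%) and for mutants on the RA diet against controls on the RA diet (0.0548%), and 0 members and 0% of genes were called in any of these comparisons. Over libraries, 13, 16, 10, 0, 7 and 17 members had an end summit in mutants on the RA diet, 9, 17, 19, 16 and 10 in controls on the RA diet, 26, 26, 19 and 2 in mutants, and 19, 24, 23 and 25 in controls, so only controls kept within a narrow range.

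By region, Fisher's exact test on all deposited summits called 0 of the 170 in Hox spans and flanks and 0% of 150489. At an unadjusted p under 0.05 it found 17 Hox regions in mutants on the RA diet against controls (5.08% of all regions), 9 in controls on the RA diet against controls (2.73%), 6 in mutants on the RA diet against mutants (2.7%), 1 in mutants against controls (0.0857%) and 0 in mutants on the RA diet against controls on the RA diet (0.409%). Of the 17, 5 were absent from all 6 mutants on the RA diet and present in all 4 controls (p = 0.00476, adjusted p = 0.561 by Fisher's exact test). They were chr2:74736026-74736164 inside Hoxd3, chr11:96341854-96342193 inside Hoxb3, chr15:102955929-102956302 inside Hoxc11, chr11:96194246-96194292 at 47 bp from Hoxb13, and chr6:52064361-52064479 in the outer HoxA flank. The Hoxd3 region was present in 0 of 6 mutants on the RA diet, 1 of 5 controls on the RA diet, 0 of 4 mutants and 4 of 4 controls, and its best rank was 69533. The regions at Hoxc11 and Hoxb13 lie within 1 kb of an end of these genes, so their summits are among those counted above. No matched set held any of the 5. The lists of mutants on the RA diet held 29112 to 87470 summits and those of controls 77593 to 122591, and the part of list length in these region counts was not tested.

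Among cofactor genes, whose homeodomain products bind DNA together with Hox proteins, Pbx3, Pbx4, Meis1 and Pknox1 had a matched end summit in all 19 libraries. Meis2 followed with 16 libraries, Pknox2 with 15 and Pbx2 with 8, while Meis3 had 0. Of 15 Polycomb and Trithorax genes 9 had a matched end summit in all 19, among them Ezh2, Eed and Suz12, the core of the complex that writes the repressive mark, and Kmt2b, a Trithorax methyltransferase. Cbx7, Kdm6a and Kdm6b had none in any list. Of the 38 Hox members, 0 reached 19 libraries.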

How the data were processed

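The deposited files hold 1 summit per line with a -log10 q score given by the authors' peak caller. Per the submitters' processing notes, BWA, MACS2, Signac and DiffBind were used with mm10 (GRCm38), and versions are not given in the sources used here. The smallest deposited score was 1.30163, just above the 1.30103 of a q of 0.05. Replicates were called per library, and no read counts were used here, so depth is unknown and list length stands in for it. Per the labels, chromatin was prepared with a commercial ATAC-seq kit.

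From these, summits were counted in the spans, in 100 kb flanks, in windows of 100 kb and within 1 kb of gene ends, for the 29112 best summits and for all 1547369. Summits were assigned to the nearest gene within 100 kb, and those at most 200 bp apart from at least 2 libraries were joined. limma 3.58.1 in R 4.3.3 (trend and robust, log2 of count + 0.5, minimum mean 1) fitted all 4 groups together. Fisher's exact test (scipy 1.17.1) compared presence. Permutation tests between groups were exact, and those over all 19 libraries used 100000 resamples. P-values of limma and Fisher's exact test were adjusted by Benjamini-Hochberg over all features. Those of the density tests were adjusted over 20 tests between groups or over 4 clusters, and those of list length over 2 relations. The limma and Fisher steps were tested on simulated data. Figures used matplotlib 3.10.9.

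Named one by one were members with a matched end summit, members passing the gene filter, flank genes with an end summit in all 19 libraries, span regions matched in all 19 and at most 5 regions of smallest p per comparison. The 5 leading span regions, the Hoxd1 region and the printed windows were picked after their values were seen. Members and gene lists were chosen with earlier results of these data known. Some genes of the annotation and of the lists are not reported here.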

Additional observations from a re-analysis of the deposited data

Results flagged for a closer look

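Dixon's criterion for a sample far from its group marked 4 of 36 groups of values. The chance rate of about 1 in 20 assumes continuous and independent values. These groups were overlapping measures of the same libraries. Some were small counts, where 1 library that differs from otherwise equal ones is always marked. Mutant 6 on the RA diet held 9 matched summits in the 4 spans, and the nearest library of its group held 3. Mutant 4 on the RA diet, the library with the shortest list, held 2.40 flank summits per 10000, and the nearest library held 4.07. Control 3 on the RA diet had a matched end summit at 2 Hox members, where the nearest library had 1. Mutant 2 had 1 such member, and the other mutants had 0.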

How the results depend on the processing

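All 33 counts of Hox calls between groups were 0, and so were all 843 values under the alternatives. Part of these zeros could hardly have been otherwise, so their number does not measure robustness. In its main setting, limma on matched summits per gene tested 0 Hox members. For mutants against controls, 12507 genes had to reach the smallest p of Fisher's exact test, 0.0286, before any passed. With the replicate block the count was 0 in each test, with a smallest adjusted p of 0.833 for span minus flank density (exact sign-flip test over same-numbered pairs). With so few pairs, that sign-flip test cannot reach an unadjusted p under 0.05, so its count of 0 was fixed in advance. Same-numbered libraries were not paired by the labels: over 25 pairs the correlation of deviations ran from -0.153 to 0.129, with 4 above 0.1, and 5 of 18 libraries correlated best with their own number.

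Span minus flank density, at 0.0793 (HoxA), 0.141 (HoxB), 0.266 (HoxC) and -0.208 (HoxD) summits per 100 kb in the matched set, moved as follows, and the cause was not tested. With 14556 summits it was -0.0263 in HoxA, -0.0526 in HoxB and -0.711 in HoxD, which passed (permutation test, adjusted p = 1.6e-04). With all deposited summits it was 6.15, 0.739, 2.77 and 6.85 in HoxA, HoxB, HoxC and HoxD, and all 4 passed. With 50 kb flanks it was -0.579, -0.280, 0.266 and 0.660, all passing except HoxB, and with 200 kb flanks -0.315, -0.0436, -1.52 and 0.160, of which HoxC passed. Spans widened by 10 kb gave -0.503 in HoxA, 0.219 in HoxC and -0.295 in HoxD, which passed (permutation adjusted p = 0.0299, 0.0299 and 0.0162). Without mutant 4 on the RA diet, at 48323 summits a library, a setting chosen after seeing the data, it was 1.59 in HoxA, 0.600 in HoxC and 1.72 in HoxD, which passed (permutation adjusted p = 8.0e-05, 0.0126 and 6.8e-04). Leaving out 1 library gave -0.0465 to 0.167 in HoxA, 0.0804 to 0.200 in HoxB, 0.232 to 0.308 in HoxC and -0.279 to -0.109 in HoxD, and none passed.

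The 4 members with a matched end summit became 0 with 14556 summits, 32 with all, 9 within 2 kb of an end and 19 at 48323 summits, and 2 to 4 without 1 library (2 without mutant 6 on the RA diet, whose summits named Hoxb2 and Hoxd9). Unknown depth limits every absent summit: it is a summit not called, not closed chromatin.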

Other observations

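Values for developmental homeobox genes outside the Hox clusters, by the same rule of a summit within 1 kb of an end, are given here as values. Of 6 Cdx and ParaHox genes, relatives of the Hox clusters, 0 had a matched end summit in all 19 libraries. Gsx1, which acts in ventral forebrain progenitors, had one in 16, and Cdx1, Cdx2, Cdx4, Gsx2 and Pdx1 had 0. Of 13 genes of the other homeobox families in the list 0 reached 19 libraries. Irx6 had matched end summits in 10 libraries, the forebrain interneuron regulators Dlx1 and Dlx2 in 9, Dlx6 in 5 and Dlx5 in 2. Nkx2-1 and Six3, regulators of the ventral and anterior forebrain, had 0 and had deposited end summits in 8 and 4.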
